A study of Homo sapiens with 5 samples.

Results

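Glycolysis and hypoxia response genes were examined by bulk RNA-seq in HUDEP-2, a cord blood line of immortalised cells at an erythroid progenitor stage. A list of 36 symbols was matched to the authors' deposited table by gene name. It holds the glycolytic enzymes with BPGM, the fructose bisphosphate regulators (PFKFB), the pyruvate dehydrogenase kinases (PDK), the HIF subunits with their inhibitors and hydroxylases, and further HIF targets. Of these, 35 were among the 11976 genes of the authors' deposited table, and P4HA2 was not analysed here. The comparison was between 3 libraries labelled ERF knockout (ERF is a repressor of transcription with an ETS domain) and 2 libraries labelled as wild type, and no label names a treatment or a culture stage. The name of the authors' deposited table carries the word Pre, which no label explains, so the stage or condition it covers is not known. The titles of the wild-type libraries carry the letters SCR, which the labels do not explain, and no label says whether the knockout is 1 clone or whether replicate libraries are separate cultures. P-values therefore measure only the spread between these libraries, and that spread may be technical.

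Glycolysis splits glucose into pyruvate and is the only source of ATP in the mature red cell, which has no mitochondria. Red cells also divert an intermediate through bisphosphoglycerate mutase (BPGM), whose product binds hemoglobin and lowers its affinity for oxygen. HIF, a dimer of an oxygen-regulated α subunit and ARNT, activates many glycolytic genes when oxygen is low. Prolyl hydroxylases of the EGLN family mark the α subunit for destruction by VHL when oxygen is present, and pyruvate dehydrogenase kinases keep pyruvate out of mitochondria.

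The authors' deposited table held no value per library, so each gene is given by its mean expression over all libraries (log2 CPM, reads scaled to a common library total), its log2 fold change and the adjusted p of the authors' edgeR test. Library depths are unknown. The standard error (SE) and 95% interval of a gene were derived from the fold change and F statistic. The header names no reference group. The sign was therefore set so that HBG2, a γ-globin gene, is higher in the libraries labelled knockout, as the series title states of γ-globin when ERF is inactivated. HBG2 stood at 1.88 under this sign per the authors' deposited table and is not a result. ERF RNA then went against the knockout label, at 0.89 with an SE of 0.07 (1.85-fold higher, adjusted p = 6.44e-06) per the authors' deposited table. Under the opposite sign all directions swap, while sizes, calls and contrasts between members stay as they are. "Higher" and "lower" refer throughout to the libraries labelled knockout, under the sign set by HBG2. Of 10 erythroid markers all were measured, 6 of them higher and 0 lower. Of 20 markers of T cells, B cells, myeloid cells, megakaryocytes and stroma, LYZ, at 0.48 log2 CPM, and ITGA2B, at 7.26 log2 CPM per the authors' deposited table, were measured and neither was past the threshold.

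At an adjusted p below 0.05, 12 of the 35 members were higher, 6 were lower and 17 did not pass, per the authors' deposited table. Over all genes 50.9% passed, 24.9% higher and 25.9% lower, so the 51.4% of members that passed lies at the background. The share of members that were higher was 34.3%, and the share lower was 17.1%. Their median log2 fold change was 0.09 against -0.002 over all genes. Changes were small: 3 members (PDK1, PFKFB3 and HK2) passed with at least a 1.5-fold difference, and PDK1 alone with at least a 2-fold difference. In bulk RNA, fewer cells of a type and less RNA per cell cannot be told apart.

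The glycolytic enzymes themselves were more often higher than lower, with the larger rises in the steps after aldolase. With BPGM, 9 of 18 were higher (HK1, ALDOA, TPI1, PGK1, PGAM1, BPGM, ENO1, PKM and LDHA), 2 were lower (HK2 and ENO2) and 7 did not pass. Over all genes 24.9% were higher and 25.9% lower. Among genes of at least 7 log2 CPM these shares were 32.6% and 23%. The median over the 18 was 0.15 per the authors' deposited table. Hexokinase, which traps glucose in the cell as its phosphate, moved in opposite directions in its 2 measured forms. HK1 (ENSG00000156515), the hexokinase gene known from red cells, was 1.17-fold higher at 0.22 (SE 0.04, 95% interval 0.12 to 0.32, adjusted p = 0.00207) per the authors' deposited table. HK2 (ENSG00000159399), the insulin-responsive form, was 1.53-fold lower at -0.61 (SE 0.09, 95% interval -0.80 to -0.42, adjusted p = 0.000221) per the authors' deposited table. The intervals of the 2 hexokinases lie on opposite sides of zero.

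**Figure D1:**
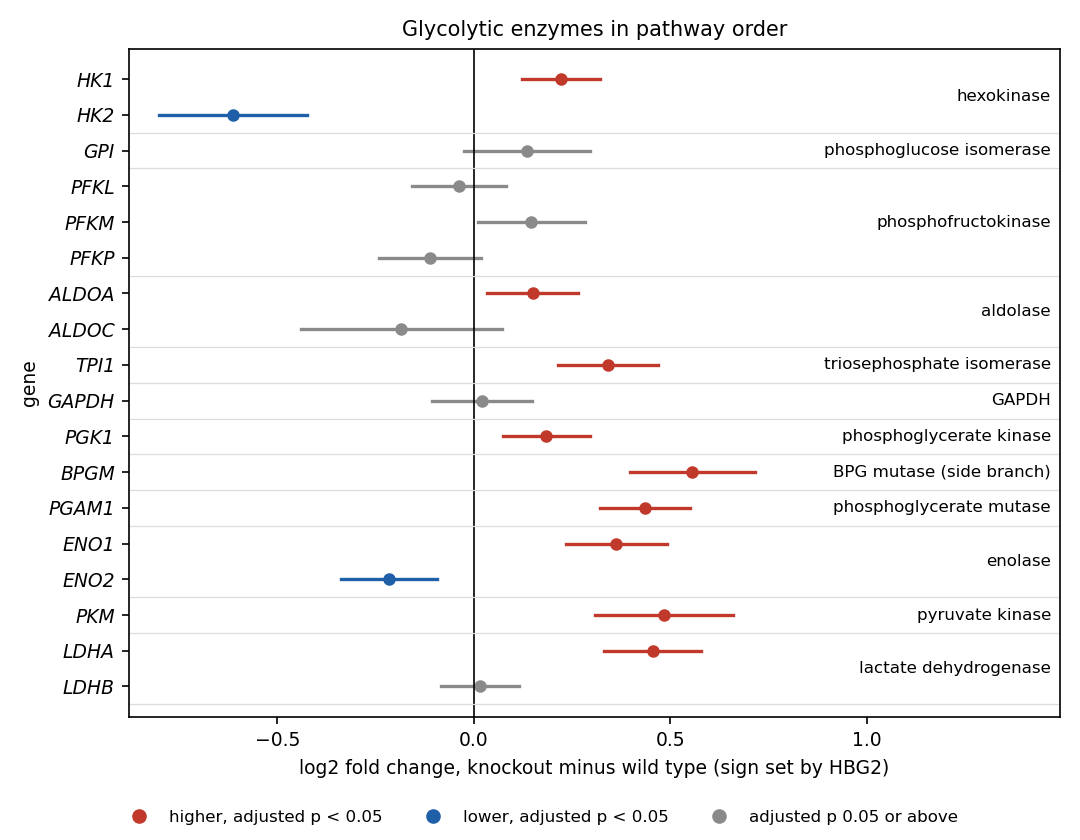
Log2 fold changes (x axis) of the 18 measured glycolytic enzymes, BPGM included, listed in pathway order (y axis). Points are deposited values and bars are derived 95% intervals; colours mark the deposited call. From TPI1 to LDHA the points lie to the right of zero except ENO2, with GAPDH and LDHB beside the line, and HK2 is the lowest.

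No gene of the steps between hexokinase and aldolase passed the threshold. GPI, which turns glucose phosphate into fructose phosphate, stood at 0.14 (95% interval -0.03 to 0.30, adjusted p = 0.143) per the authors' deposited table. Phosphofructokinase, the committed and most regulated step, has a liver, a muscle and a platelet subunit. PFKL stood at -0.04, PFKM at 0.15 and PFKP at -0.11 per the authors' deposited table, with adjusted p-values of 0.586, 0.0695 and 0.139 (edgeR). Their intervals reached from -0.24 at the low end of PFKP to 0.28 at the high end of PFKM. Aldolase then cleaves the doubly phosphorylated sugar. ALDOA, the muscle and red cell form, was 1.11-fold higher at 0.15 (SE 0.05, adjusted p = 0.0355) per the authors' deposited table. This call was lost when fold changes were centred on the median of genes of at least 5 log2 CPM (adjusted p = 0.0900). ALDOC, the brain form, was less abundant in reads (3.13 log2 CPM) and stood at -0.18 (95% interval -0.44 to 0.07) per the authors' deposited table.

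Below aldolase, TPI1, PGK1, PGAM1, ENO1, PKM and LDHA were each higher, between 1.14-fold and 1.40-fold. TPI1, which interconverts the 2 triose phosphates, stood at 0.34 (SE 0.06, adjusted p = 0.000691) per the authors' deposited table. GAPDH, the oxidative step that follows and a common reference gene, stood at 0.02 (95% interval -0.11 to 0.15, adjusted p = 0.775) per the authors' deposited table, and at -0.01 when centred on genes of at least 5 log2 CPM. A change beyond 1.11-fold in either direction thus lies outside the interval of GAPDH. The interval of TPI1, the step before it, lies wholly above that of GAPDH (0.22 to 0.47), while that of PGK1, the step after it, overlaps it. PGK1, the first step that yields ATP, was 1.14-fold higher at 0.18 (95% interval 0.07 to 0.30, adjusted p = 0.0110) per the authors' deposited table. PGAM1, which moves the phosphate of phosphoglycerate, was 1.35-fold higher at 0.43 (SE 0.05, adjusted p = 8.13e-05) per the authors' deposited table, the lowest adjusted p among the enzymes. PKM, a pyruvate kinase gene and the second step that yields ATP, was 1.40-fold higher at 0.48 (SE 0.08, adjusted p = 0.000604) per the authors' deposited table.

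BPGM (ENSG00000172331), which makes the bisphosphoglycerate that lowers the oxygen affinity of hemoglobin, had the largest rise of the enzymes under the sign set by HBG2, where the opposite sign would give HK2. It was 1.47-fold higher at 0.56 (SE 0.07, 95% interval 0.40 to 0.72, adjusted p = 0.000139) with a mean of 4.78 log2 CPM per the authors' deposited table. MINPP1, a phosphatase that can break down bisphosphoglycerate, was chosen after its value was seen and stood at -0.10 (adjusted p = 0.131) per the authors' deposited table. Of the 10 erythroid markers, 6 were higher, 0 lower and 4 did not pass, with TFRC at 1.01 per the authors' deposited table; the part of erythroid maturation in the BPGM value was not tested.

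Enolase and lactate dehydrogenase each had 1 form that was higher and another that was not. ENO1, the widespread enolase, was 1.29-fold higher at 0.36 (SE 0.06, adjusted p = 0.000540) per the authors' deposited table. ENO2, the neuronal form, was 1.16-fold lower at -0.22 (SE 0.06, 95% interval -0.34 to -0.09, adjusted p = 0.00796) per the authors' deposited table. LDHA, which favours making lactate from pyruvate, was 1.37-fold higher at 0.45 (SE 0.06, adjusted p = 9.96e-05) per the authors' deposited table. LDHB, which favours the reverse, stood at 0.02 (95% interval -0.08 to 0.12, adjusted p = 0.786) per the authors' deposited table. Pyruvate kinase has a second gene, PKLR, the red cell and liver form, which was chosen after its value was seen. It was 1.12-fold lower at -0.16 (adjusted p = 0.0354) at 8.54 log2 CPM per the authors' deposited table, opposite to PKM.

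Several of these enzymes have retrocopies in the genome, so reads can be shared. GENCODE release 29 names 62 pseudogenes after GAPDH, 13 after PGAM1, 6 after LDHA, 5 after PKM, 4 each after TPI1 and ENO1, and 3 after LDHB. None of these pseudogenes had a row per the authors' deposited table. Reads not uniquely aligned form a class of their own there, so values of these genes, that of PGAM1 among them, are uncertain to the extent that such reads were left out.

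Most of the higher enzymes were among the members with many reads. All 12 members of at least 7 log2 CPM were glycolytic enzymes, of which 8 were higher, 0 lower and 4 neither (GPI, PFKL, GAPDH and LDHB). Of all 1250 genes at that expression, 55.7% passed, 32.6% higher and 23% lower, per the authors' deposited table. Among the 23 members below it, 4 were higher (BPGM, PFKFB3, PDK3 and HIF1A), 6 lower and 13 neither. The median over genes of at least 7 log2 CPM was 0.04, against 0.20 for the 12 members.

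**Figure D2:**
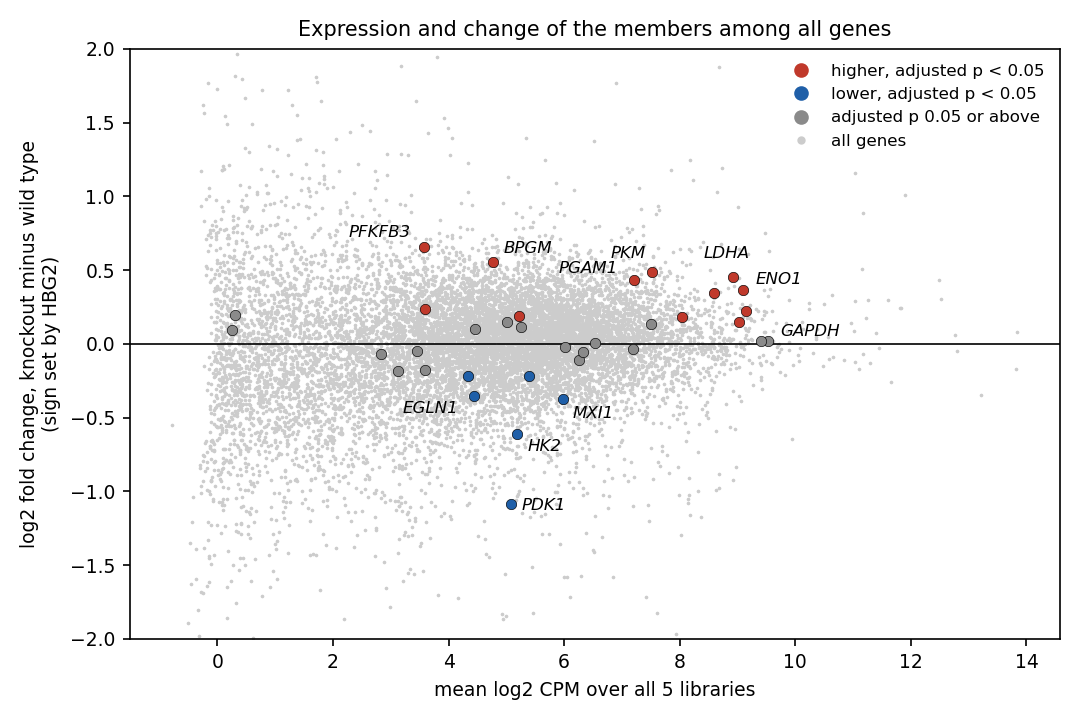
Mean expression (x axis, log2 CPM over all libraries) against log2 fold change (y axis) for all genes (grey dots) and the 35 measured members (coloured by deposited call). The axis is limited to 2 in either direction, which leaves 49 genes undrawn, none of them members; lower members lie between 4.34 and 5.97 log2 CPM.

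Of the 6 members that are PFKFB enzymes or pyruvate dehydrogenase kinases, 2 were higher, 1 was lower and 3 did not pass. Over all genes 24.9% were higher and 25.9% lower. Among these 6 were the members with the largest change in each direction, PFKFB3 and PDK1. PFKFB enzymes make or remove the fructose bisphosphate that activates phosphofructokinase. PFKFB3 (ENSG00000170525), the form with the strongest bias towards making it, was 1.57-fold higher at 0.65 (SE 0.09, 95% interval 0.44 to 0.86, adjusted p = 0.000274) per the authors' deposited table. This was the largest rise of the 35 members under the sign set by HBG2; under the opposite sign that would be PDK1. PFKFB2, the heart form, stood at -0.05 (95% interval -0.27 to 0.17) and PFKFB4 at -0.07 (95% interval -0.28 to 0.14) per the authors' deposited table, and neither passed (adjusted p = 0.687 and 0.556).

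PDK1 (ENSG00000152256) had the largest change of all members. This kinase inactivates pyruvate dehydrogenase and so limits the entry of pyruvate into the citric acid cycle. Its RNA was 2.12-fold lower at -1.09 (SE 0.06, 95% interval -1.22 to -0.95, adjusted p = 6.14e-07), at 5.09 log2 CPM per the authors' deposited table. By p-value it ranked 85 of 11976 genes. None of the other measured kinases of the family was lower by the test. PDK2 stood at -0.18 (95% interval -0.39 to 0.03, adjusted p = 0.135) and PDK3 was 1.18-fold higher at 0.23 (SE 0.07, adjusted p = 0.0235) per the authors' deposited table. PDK4, a further kinase that responds to fasting and glucocorticoids, stood at 0.78 (SE 0.24, adjusted p = 0.0184) with few reads (0.58 log2 CPM) per the authors' deposited table. The interval of PDK1 did not overlap that of any of these.

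**Figure D3:**
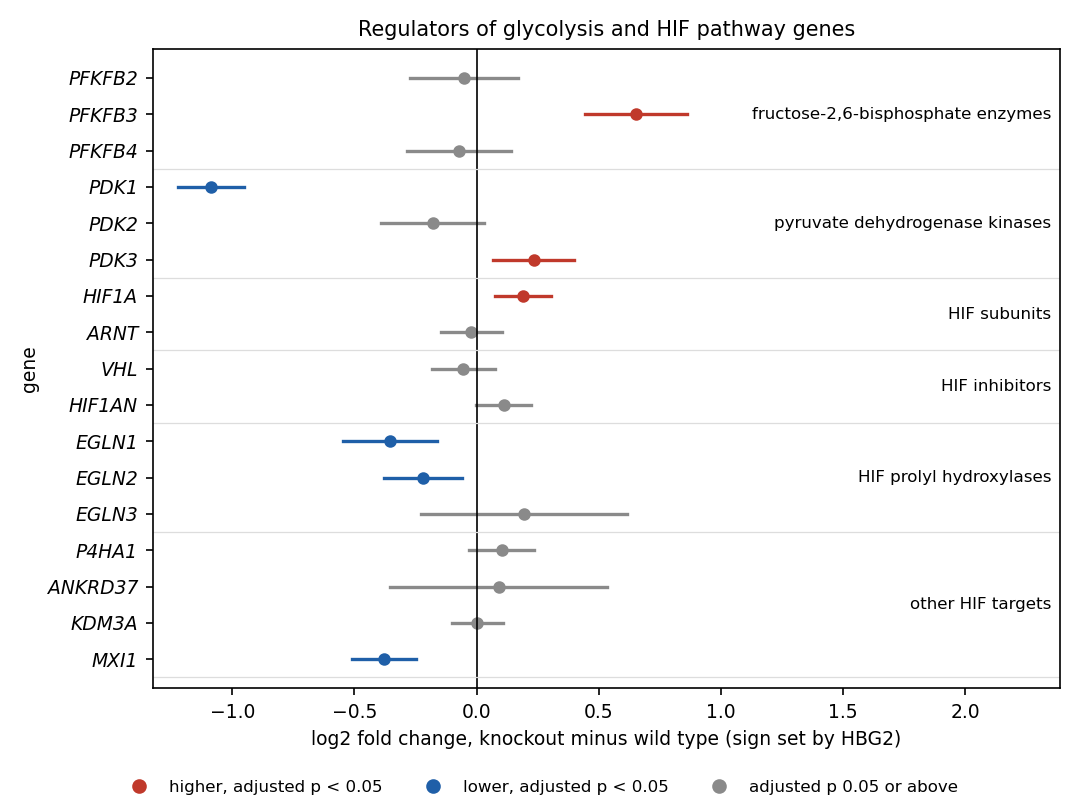
Log2 fold changes (x axis) of the 17 measured regulators of glycolysis and HIF pathway genes (y axis), grouped by role. Points are deposited values and bars are derived 95% intervals; colours mark the deposited call. PDK1 stands alone on the left at -1.09 and PFKFB3 on the right at 0.65; EGLN3 and ANKRD37 have the widest intervals.

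The HIF subunits and HIF inhibitors among the members changed little. HIF1A, the α subunit, was 1.14-fold higher at 0.19 (SE 0.05, 95% interval 0.07 to 0.30, adjusted p = 0.0113) per the authors' deposited table. Its partner ARNT stood at -0.02 (95% interval -0.15 to 0.10, adjusted p = 0.765) per the authors' deposited table. VHL, the recognition subunit of the ligase that destroys the α subunit, stood at -0.05 (95% interval -0.18 to 0.08) and HIF1AN, which blocks binding of its coactivators, at 0.11 (adjusted p = 0.0899) per the authors' deposited table. HIF protein, whose level is set after translation, was not measured.

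Of the 3 prolyl hydroxylases, 2 were lower and EGLN3 did not pass, where 25.9% of all genes were lower. EGLN1, the main hydroxylase of HIF1A in most cells and itself a HIF target, was 1.28-fold lower at -0.35 (SE 0.09, 95% interval -0.55 to -0.16, adjusted p = 0.00623) per the authors' deposited table. EGLN2, which is not known as HIF-induced, was 1.16-fold lower at -0.22 (SE 0.07, adjusted p = 0.0255) per the authors' deposited table. EGLN3, a strongly HIF-induced form, had few reads (0.31 log2 CPM) and stood at 0.19 with an interval from -0.23 to 0.61 per the authors' deposited table. The interval of EGLN3 thus leaves either direction possible.

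Of the 4 other HIF targets measured among the members, MXI1 was lower and the rest did not pass. MXI1, a repressor that competes with MYC for its partner MAX, was 1.30-fold lower at -0.38 (SE 0.06, 95% interval -0.51 to -0.25, adjusted p = 0.000464) per the authors' deposited table. KDM3A, a histone demethylase, stood at 0.002 (95% interval -0.10 to 0.11, adjusted p = 0.972) per the authors' deposited table, and at -0.03 when centred on genes of at least 5 log2 CPM. P4HA1, a collagen prolyl hydroxylase subunit, stood at 0.10 (95% interval -0.03 to 0.24) per the authors' deposited table. ANKRD37 had few reads (0.26 log2 CPM) and stood at 0.09 with an interval from -0.35 to 0.54 per the authors' deposited table. Over all 17 members that did not pass, 16 had an interval within 1.5-fold of no change in either direction, EGLN3 being the exception.

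The 250 bases before each RefSeq start (build GRCh38.p14) were searched for the core of the hypoxia response element, as ACGTG or GCGTG, and for the ETS core CCGGAA. Both strands were searched, and a palindrome CACGTG holds ACGTG on both. The promoter table matched 34 of the 36 symbols, with 63 start sites; PFKFB2 and VHL had no entry. ACGTG was in 38.1% of these windows against 18.5% of all 35116 windows, GCGTG in 30.2% against 32.2%, and CCGGAA in 23.8% against 14.5%. By gene, ACGTG stood before at least 1 start of all 6 lower members, 7 of the 12 higher and 8 of the 15 matched members that did not pass, against 5935 of all 27305 genes. GCGTG stood before a start of 2 of the 6 lower members, 8 of the 12 higher and 6 of the 15 that did not pass, against 9889 of all genes. The ETS core CCGGAA stood before a start of 2 of the 6 lower members and 4 of the 12 higher. It also stood before a start of 5 of the 15 that did not pass, against 4695 of all genes. Starts of 1 gene can overlap and a match is not evidence of binding. Shares by gene are not like for like, because 34 members had 63 starts and 27305 genes had 35116. The list was also chosen to hold HIF targets, while all genes include ones not measured here. More ACGTG among the members may follow from that choice, and no difference between the groups by call was tested. Stretches before the starts of 3 higher and 3 lower members are printed because such cores occur in both groups. They end where an annotated exon begins (GENCODE release 29), except for PDK1, and capitals mark the matches, from 5′ to 3′.

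LDHA (higher), chr11:18394313-18394387, plus strand: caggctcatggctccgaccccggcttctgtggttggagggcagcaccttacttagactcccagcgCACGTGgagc
PGK1 (higher), chrX:78103998-78104173, plus strand: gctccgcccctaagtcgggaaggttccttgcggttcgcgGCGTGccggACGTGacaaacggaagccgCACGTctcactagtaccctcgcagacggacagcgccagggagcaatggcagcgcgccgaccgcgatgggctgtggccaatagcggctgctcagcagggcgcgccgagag
BPGM (higher), chr7:134646603-134646807, plus strand: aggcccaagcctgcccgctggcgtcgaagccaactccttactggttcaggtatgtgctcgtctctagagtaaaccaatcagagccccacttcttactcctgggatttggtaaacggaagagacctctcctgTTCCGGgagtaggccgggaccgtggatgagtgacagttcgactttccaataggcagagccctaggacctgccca
HK2 (lower), chr2:74834920-74835169, plus strand: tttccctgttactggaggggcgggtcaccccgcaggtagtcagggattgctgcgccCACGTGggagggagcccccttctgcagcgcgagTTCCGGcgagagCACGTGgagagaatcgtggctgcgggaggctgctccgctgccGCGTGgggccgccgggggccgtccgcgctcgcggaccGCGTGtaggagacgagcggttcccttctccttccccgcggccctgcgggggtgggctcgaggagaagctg
MXI1 (lower), chr10:110209981-110210230, plus strand: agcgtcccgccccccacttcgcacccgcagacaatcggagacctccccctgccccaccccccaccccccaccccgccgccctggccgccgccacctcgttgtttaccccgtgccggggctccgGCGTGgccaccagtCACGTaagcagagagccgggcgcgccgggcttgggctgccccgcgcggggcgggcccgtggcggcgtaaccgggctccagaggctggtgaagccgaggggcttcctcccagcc
PDK1 (lower), chr2:172556062-172556089, plus strand: ctgctgcccgcCACGTccctCACGTacc

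The LDHA stretch holds the palindrome 185 bases before the start; its further ACGTG matches, at 87 to 73 bases, lie in the first exon of a transcript that starts earlier. PGK1 shows ACGTG at 202 and, on the other strand, at 183 bases before the start, next to a GCGTG. BPGM has the ETS core on the minus strand, 119 bases before the start, and its ACGTG, at 47 bases, spans the start of an annotated exon and is not shown whole. HK2 holds 2 palindromes, 194 and 149 bases before this start, with an ETS core on the minus strand between them, and MXI1 holds an ACGTG on the minus strand 113 bases before the start. In PDK1 both matches, 17 and 8 bases before this start, lie on the minus strand inside the first exon of a transcript that starts earlier, so only 28 bases are shown.

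Other HIF targets, from a list of 49 genes outside the members, were more often lower than higher: 13 of 35 measured were lower, 5 higher and 17 did not pass. The share that passed, 51.4%, lies at the 50.9% of all genes, of which 25.9% were lower and 24.9% higher. Their median was -0.11 (all genes -0.002). DDIT4, an inhibitor of mTORC1 signalling, was lowest at -4.09, followed by VEGFA, the angiogenic growth factor, at -1.83 per the authors' deposited table. Both are also known as targets of ATF4, the factor of the integrated stress response; the part of that response in these values was not tested. TFRC, the transferrin receptor, at 1.01 and LOX, a collagen cross-linking enzyme with few reads, at 0.78 were the highest per the authors' deposited table. BNIP3 (0.04) and BNIP3L (0.11), mitophagy receptors and common HIF targets, did not pass per the authors' deposited table and were chosen after their values were seen.

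Regulators of the HIF pathway outside the members divided evenly: 6 of 18 were higher and 5 lower, and their median was 0.01. Of all genes, 24.9% were higher and 25.9% lower. HSP90AA1, a chaperone that stabilises the α subunit, stood at 0.89, and EPAS1, the α subunit of HIF2, at 0.45 (1.37-fold higher, adjusted p = 0.00279) per the authors' deposited table. IDH1, which makes the oxoglutarate that the hydroxylases consume, stood at -1.58 and SIAH1, a ligase that degrades hydroxylases, at -0.59 per the authors' deposited table.

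Around the pathway, a list of glucose and lactate transport genes, with related carriers and regulators, gave 2 of 17 genes higher and 7 lower (median -0.09). The shares over all genes were 24.9% higher and 25.9% lower. ARRDC4 stood at -1.37 and TXNIP at -1.09 per the authors' deposited table; these related arrestins rise with glucose phosphates and curb glucose uptake. SLC2A3, a high-affinity glucose transporter, stood at 0.71 and SLC2A6 at 0.52 per the authors' deposited table. SLC2A14, a near-identical copy of SLC2A3, stood at -0.88 per the authors' deposited table, so the split of reads between these copies, and both values, are uncertain. SLC2A1, the main glucose transporter of red cells, stood at 0.11 (adjusted p = 0.0703), and the lactate transporters SLC16A1 and SLC16A3 at -0.09 and 0.06 per the authors' deposited table. SLC2A14, SLC2A1, SLC16A1 and SLC16A3 were chosen after their values were seen.

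Further isoenzymes and side branches included 9 of 22 genes that were higher and 5 that were lower (median 0.03). Across all genes the shares were 24.9% and 25.9%. GPD1, a glycerol phosphate dehydrogenase, stood at 0.87 with few reads and PDK4, described above, followed; PCK2, which makes phosphoenolpyruvate in mitochondria, stood at -1.31 and the glycogen phosphorylase PYGL at -0.62 per the authors' deposited table. PCK2 is also known as a target of ATF4. In the pyruvate dehydrogenase complex, the target of PDK1, and the mitochondrial pyruvate carrier, 8 of 11 genes did not pass. Of all genes, 50.9% passed. DLD, the shared lipoamide dehydrogenase, stood at -0.34, PDPR, a regulator of the phosphatase, at -0.27 and the carrier subunit MPC2 at 0.21 per the authors' deposited table. PDHA1, the subunit that PDK1 phosphorylates, was chosen after its value was seen and stood at 0.11 (adjusted p = 0.0959) per the authors' deposited table.

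**Figure D4:**
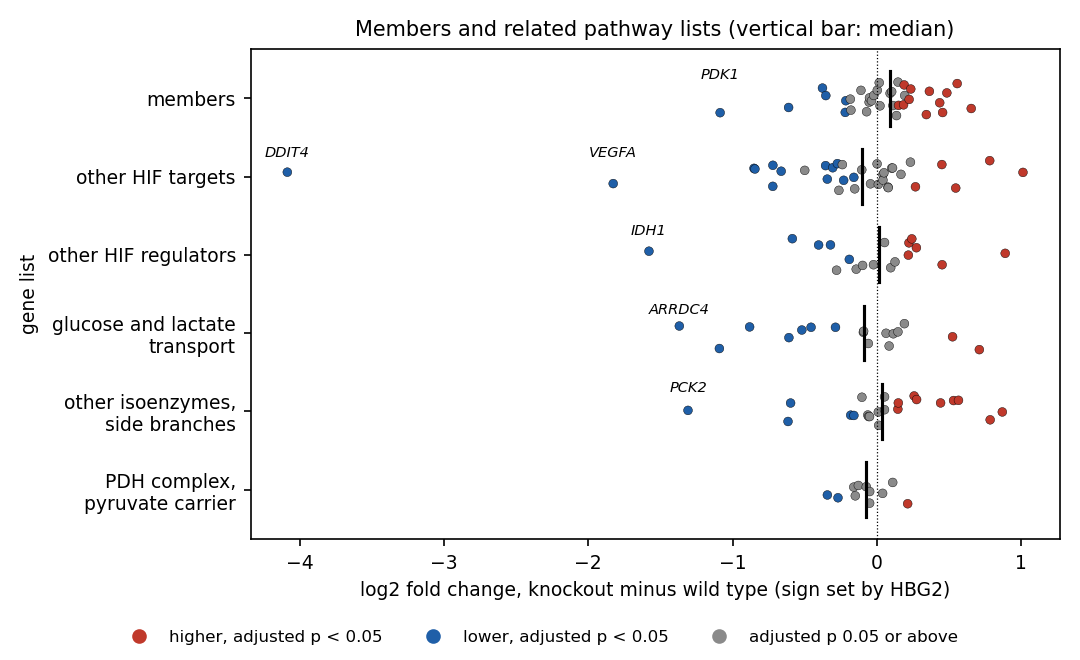
Log2 fold changes (x axis) of the 35 measured members and of 5 related lists (y axis), with 1 point per gene, coloured by deposited call and spread vertically for visibility. Black bars are medians, from -0.11 for other HIF targets to 0.09 for the members; DDIT4 at -4.09 is the farthest point.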

How the data were processed

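Total RNA of 3 libraries labelled ERF knockout and 2 labelled wild type was extracted with Trizol and sequenced from Illumina TruSeq libraries, per the labels' protocols. Per the submitters' processing notes, the tools were HTSeq, SAMtools, Cuffdiff, TopHat2 2.0.4 and edgeR 2.6.12, and the builds hg19 and GRCh37, with no roles. No source used here gives the filter, the normalization or the strand setting, so overlapping and antisense genes cannot be told apart. The authors deposited, per the file headers, each gene's log2 fold change, mean log2 CPM, F score, p-value and its adjusted form. Of 11979 rows, 3 name no gene and hold 21.5% of the CPM. They stayed in the authors' adjustment of p-values and out of all counts here. Benjamini-Hochberg values recomputed from the deposited p-values were within 0.676% of the deposited ones. There are 0 columns per library, so no model was fitted again and each call is that of the authors' edgeR test.

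Deposited fold changes were multiplied by -1. An SE is the size of the log2 fold change over the square root of F. Intervals use a t distribution whose degrees of freedom (10.3) follow from F and p. Both are approximate, because the authors' edgeR fit moderates fold changes. These steps were tested on simulated data (Python 3.11.15, SciPy 1.17.1). Named genes are all measured members and, from each related list, the 2 called genes with the largest rise and the 2 with the largest fall, plus exceptions said to be chosen later. Members and lists were chosen with earlier results of these data known. Levels of different genes were not ranked, because no gene lengths of the files' build were used. Promoter sequences are from RefSeq, GRCh38.p14. Alternatives were other filters, centrings, thresholds and adjustments.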

Additional observations from a re-analysis of the deposited data

How the results depend on the processing

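Of the members' calls, 8 of 12 higher, 5 of 6 lower and 14 of 17 not past the threshold kept their sign and their side of the threshold under all 7 alternatives that gave a value for them. At an adjusted p below 0.01, ALDOA, PGK1, PDK3, HIF1A and EGLN2 no longer passed. ALDOA also failed when centred on genes of at least 5 or 7 log2 CPM. The latter centring was chosen after seeing the data. GAPDH, LDHB and KDM3A, never called, changed sign, to -0.0130, -0.0183 and -0.0320 with the first of these centrings and to -0.0166, -0.0219 and -0.0355 with the second. The median of the members fell from 0.0910 to 0.0212 among genes of at least 1 log2 CPM, where EGLN3 and ANKRD37 drop out by construction. No paired analysis was possible because the deposited table has no values per library. For the same reason, DESeq2, unfiltered counts and leaving out replicates were not run, and how far 1 library sets a value is unknown.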
